A study of Mus musculus with 6 samples.

Results

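The mouse mitochondrial genome encodes 37 genes, and all rows of the deposited expression table whose GENCODE M21 symbol begins with mt- were taken as its members: 13 protein-coding, 22 tRNA and 2 rRNA genes among 54393 genes in all. The series profiled RNA from the tibialis anterior (TA), a fast limb muscle of the lower leg, in adult mice of 2 genotypes. There were 3 WT muscles, with titles that begin C57 and the replicate numbers 1, 3 and 4, and 3 Dock3 KO muscles, with the replicate numbers 1, 2 and 3. Dock3 encodes an exchange factor that activates the small GTPase Rac. How the Dock3 allele was made, the sex, the exact age and any treatment are not given in the sources used here. Beyond genotype, the labels separate the groups only by title, where C57 stands for WT and no strain is named for Dock3 KO. Whether the groups differ in strain was not tested. Total RNA was depleted of ribosomal RNA with a RiboMinus kit before stranded paired-end libraries were made.

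Mitochondrial DNA is a small circle that is transcribed from both strands into long precursor RNAs. tRNA genes punctuate the precursors, and their excision releases most of the mRNAs and rRNAs. The mRNAs encode core subunits of respiratory complexes I, III, IV and V, the rRNAs and tRNAs serve the organelle's own ribosomes, and every other factor is imported from nuclear genes. Skeletal muscle fibres hold many mitochondria, and the RNA of the organelle is abundant in such tissue.

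The 37 genes lie nearly end to end on chrM (GRCm38, GENCODE M21). The plus strand of the reference carries 12 coding genes, both rRNA genes and 14 tRNA genes, called here the heavy-strand genes after the template they are read from. The minus strand carries mt-Nd6 and 8 tRNA genes, called here the light-strand genes. Adjacent genes share bases in places, so a read there belongs to more than 1 gene, and 4 of these overlaps join coding genes. The 3 that are longer than 1 base are shown on the plus strand because they mark where levels of neighbours cannot be fully separated. In the overlaps mt-Atp8/mt-Atp6 and mt-Nd4l/mt-Nd4 the capitals mark the start codon of the second gene and the stop codon of the first. In the overlap mt-Nd5/mt-Nd6 they mark the stop codon of mt-Nd6, read on the other strand, and that of mt-Nd5.
mt-Atp8/mt-Atp6, chrM:7927-7969: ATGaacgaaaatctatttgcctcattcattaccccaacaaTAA
mt-Nd4l/mt-Nd4, chrM:10167-10173: ATGcTAA
mt-Nd5/mt-Nd6, chrM:13552-13565: TTAatctcgagTAA
Of the 13 coding genes, 10 end in a complete stop codon. The other 3, mt-Co3, mt-Nd4 and mt-Cytb, end in a lone T in the annotation, to which polyadenylation is known to add the missing bases.

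Values are the authors' normalized counts, called levels below and given in the order WT replicates 1, 3 and 4, then Dock3 KO replicates 1, 2 and 3. Their sums per sample ran from 23520223 to 33393950, with the highest sums in Dock3 KO replicates 1 and 2. Dock3 itself was at 169, 161 and 118 for WT and 22.4, 1.78 and 1.54 for Dock3 KO. It was lower by 4.76 on the log2 scale of normalized count plus 1 (SE 0.752, limma adjusted p = 0.0140), in the direction that the label gives. The summed levels of fast fibre genes (1370166 to 1468707 in WT and 1367486 to 1578868 in Dock3 KO) and slow fibre genes (36047 to 40050 and 37957 to 44848) overlapped between the groups. The cardiac markers summed to 63.4 to 163 in WT and 101 to 140 in Dock3 KO, and the erythrocyte markers to 28542 to 54916 and 36950 to 97653. Adipocyte markers summed to 188 to 1122 and 375 to 822, macrophage markers to 1392 to 1721 and 1162 to 1457, and Schwann cell markers to 1542 to 2090 and 1682 to 2001. The skeletal muscle genes summed to 1125962 to 1486419 in WT and to 1166732 to 1498217 in Dock3 KO. Nppb of the cardiac list and Ucp1 of the adipocyte list were at 0 in all 6 muscles, and no gene of these marker lists passed the limma test. Of the 16031 genes whose mean level was 10 or more, 165 (1.03%) passed a limma adjusted p under 0.05, of which 71 were higher (0.443%) and 94 lower (0.586%) in Dock3 KO.

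The mitochondrial genome gave 21.8% to 29.4% of all normalized counts in each muscle. The 37 genes together held 26.9%, 22.7% and 29.4% of the column total in WT replicates 1, 3 and 4, and 24.0%, 21.8% and 24.5% in Dock3 KO replicates 1, 2 and 3. The groups overlapped, with a mean of 26.3% ± 3.40 for WT against 23.4% ± 1.42 for Dock3 KO (SD, n = 3 each). The difference of -2.91 percentage points had an exact two-sided permutation p = 0.3, where 0.1 is the smallest p that 3 against 3 samples can give. It was -4.73 without WT replicate 3, -1.36 without WT replicate 4 and -1.84 without both Dock3 KO replicates 1 and 2. In bulk muscle, fewer mitochondria-rich cells and less mitochondrial RNA per cell cannot be told apart.

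A pair of nuclear genes takes up an uneven part of the total behind that share. Gm42418, a long noncoding RNA gene, and Lars2, which encodes the mitochondrial leucyl-tRNA synthetase, took 3.51%, 3.49% and 3.00% of the column in WT replicates 1, 3 and 4. They took 17.9% and 20.3% in Dock3 KO replicates 1 and 2 and 3.64% in Dock3 KO replicate 3. The 2 high samples are thus Dock3 KO muscles, and the third Dock3 KO muscle lay close to WT. What RNA the counts listed under the pair come from was not tested. With both genes left out of the total, the mitochondrial share was 27.9%, 23.5% and 30.3% (WT) and 29.2%, 27.4% and 25.4% (Dock3 KO). The means were then 27.2% ± 3.46 and 27.3% ± 1.89, and the difference turned to 0.0872 percentage points (exact two-sided permutation p = 1.0).

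**Figure D1:**
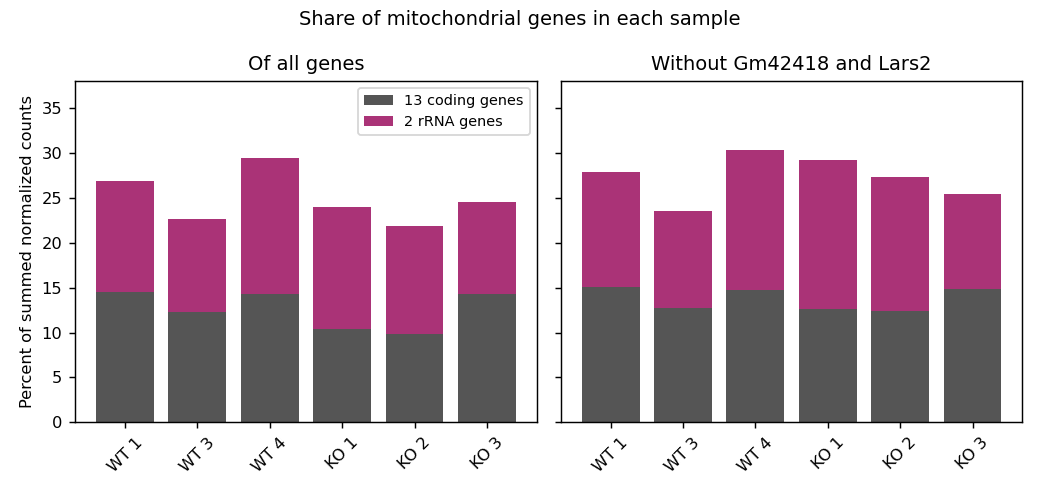
Share of the column total, in percent, held by mitochondrial coding genes and rRNA genes in each of the 6 muscles, with all genes in the total and with Gm42418 and Lars2 left out of it. The Dock3 KO replicates 1 and 2 move from 24.0% and 21.8% to 29.2% and 27.4% when the pair is left out, while the other 4 muscles move by little.

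The 13 coding genes alone held 14.5%, 12.3% and 14.3% of the column in WT and 10.4%, 9.88% and 14.3% in Dock3 KO (exact permutation p = 0.2). Without Gm42418 and Lars2 in the total these shares were 15.1%, 12.8% and 14.8% against 12.6%, 12.4% and 14.8% (exact permutation p = 0.3). The Dock3 KO replicates 1 and 2 were the 2 lowest muscles in both forms. On the authors' own scaling the summed coding genes came to 3446009 ± 483191 normalized counts for WT and 3441858 ± 169107 for Dock3 KO (SD, n = 3 each), which overlapped (exact permutation p = 1.0).

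Across the members, 25 of 37 reached a mean of 10 normalized counts and were tested: all 13 coding genes, both rRNA genes and 10 tRNA genes. None passed the limma adjusted p of 0.05, against 1.03% of all genes tested, and the lowest adjusted p among them was 0.4998. None had an unadjusted p under 0.05 either, a mark reached by 10.5% of all genes tested. Of the coding genes 9 had a log2 difference above 0 (Dock3 KO minus WT) and 4 below, with a median of 0.02 beside -0.01 over all genes tested. This split follows the scaling. With every column set to the same total it was 4 above and 9 below with a median of -0.26, where the median of all genes was -0.28. With the same total outside Gm42418 and Lars2 it was 6 above and 7 below with a median of -0.09, where that of all genes was -0.11. The 95% intervals of the 13 genes all held 0 and together spanned 0.619-fold to 2.30-fold from the lowest bound (mt-Atp6) to the highest (mt-Nd3). There mt-Nd3 is taken as listed, without the nuclear copy described below. The bounds of single genes were narrower, such as 0.677-fold to 1.37-fold for mt-Nd1 and 0.992-fold to 1.49-fold for mt-Nd6.

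**Figure D2:**
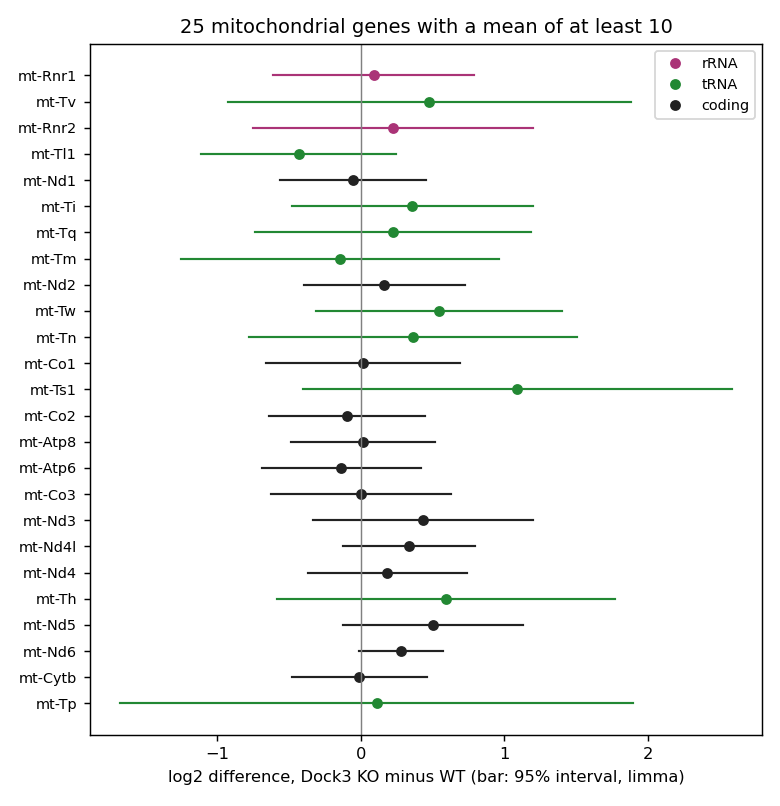
Log2 difference (Dock3 KO minus WT, on log2 of normalized count plus 1) of each tested mitochondrial gene, with points for the limma estimate and bars for its 95% interval. All 25 intervals cross 0, and the widest are those of the tRNA genes mt-Tp and mt-Ts1.

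Complex I, which feeds electrons from NADH into the respiratory chain, has 7 subunits encoded here. mt-Nd1, the subunit next to the quinone site, was at 345845, 295779 and 366174 across WT muscles and 333212, 288151 and 347433 across Dock3 KO muscles. The groups overlapped almost fully, and the log2 difference was -0.06 (SE 0.228, limma adjusted p = 0.967). mt-Nd2, a proton-pumping membrane subunit, was at 119483, 78900 and 82246 for WT and 79239, 99091 and 138650 for Dock3 KO. mt-Nd4, another pumping subunit, was at 244655, 146616 and 164055 (WT) and 175258, 209606 and 234765 (Dock3 KO). In both genes WT replicate 1 stood with Dock3 KO replicates 2 and 3 above the other 3 muscles. The log2 differences were 0.16 (SE 0.251) for mt-Nd2 and 0.18 (SE 0.248) for mt-Nd4, with limma adjusted p = 0.895 and 0.874.

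mt-Nd5, the pumping subunit at the far end of the membrane arm, was at 107883, 59446 and 63376 across WT muscles and 76207, 114362 and 132614 across Dock3 KO muscles. WT replicate 1 again lay inside the Dock3 KO range. Its log2 difference of 0.50 (95% interval -0.12 to 1.13) was the highest estimate of the 13 coding genes (limma adjusted p = 0.603). mt-Nd4l, a small membrane subunit, was at 19462, 12523 and 11716 for WT and 15260, 20938 and 17934 for Dock3 KO, with a log2 difference of 0.33 (95% interval -0.13 to 0.795, limma adjusted p = 0.641). The 7 complex I mRNAs made up 24.0%, 20.9% and 18.6% of all coding counts in WT and 20.5%, 23.3% and 24.9% in Dock3 KO (exact permutation p = 0.5).

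Complex III has a single subunit encoded here, mt-Cytb, the cytochrome b that carries both quinone sites. It was at 240430, 198589 and 201976 (WT) and 197072, 195745 and 243842 (Dock3 KO). One muscle of each genotype was highest and the remaining 4 lay together below. The log2 difference was -0.01 (95% interval -0.48 to 0.46, limma adjusted p = 0.995).

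Complex IV, cytochrome c oxidase, passes electrons to oxygen, and its 3 catalytic core subunits gave most of the coding counts. They made up 58.5%, 62.3% and 65.3% of the coding sum in WT replicates 1, 3 and 4 and 64.1%, 61.9% and 58.1% in Dock3 KO replicates 1, 2 and 3 (exact permutation p = 0.7). mt-Co1, which holds the oxygen-reducing centre, was at 1045554, 909729 and 1209658 across WT muscles and 1103916, 1066380 and 1013581 across Dock3 KO muscles. All 3 Dock3 KO values lay within the WT range, and the log2 difference was 0.02 (95% interval -0.66 to 0.69). mt-Co2, which accepts electrons from cytochrome c, was at 422777, 355065 and 484291 for WT and 406080, 358858 and 409219 for Dock3 KO, again inside the WT range. mt-Co3, the third core subunit, was at 663995, 538639 and 788584 (WT) and 713407, 594670 and 665141 (Dock3 KO), inside it as well. The log2 differences of mt-Co2 and mt-Co3 were -0.10 (SE 0.243) and 0.00024 (SE 0.280), with limma adjusted p = 0.944 and 0.9998.

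Complex V, the ATP synthase, has a pair of membrane subunits encoded here on 1 shared mRNA. mt-Atp6, which forms the proton channel, was at 378860, 269597 and 377155 across WT muscles and 313652, 264055 and 349329 across Dock3 KO muscles. mt-Atp8, a short membrane subunit, was at 17743, 18014 and 31102 for WT and 24865, 22277 and 18530 for Dock3 KO. Although the mature mRNA is shared, mt-Atp8 was 4.68%, 6.68% and 8.25% of mt-Atp6 in WT and 7.93%, 8.44% and 5.30% in Dock3 KO. The log2 differences were -0.14 (SE 0.248) and 0.02 (SE 0.224), with limma adjusted p = 0.915 and 0.993, and both groups overlapped in each gene.

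Levels can be compared between genes only per length. Per kilobase of annotated transcript, mt-Co3 had the highest mean over the 6 muscles among coding genes, 842780 normalized counts per kb, followed by mt-Co1 at 684878, mt-Co2 at 593638 and mt-Atp6 at 477887. The complex III gene and the complex I genes came lower. mt-Nd1 was at 344234, mt-Cytb at 186138, mt-Nd4 at 142109 and mt-Nd2 at 95955 per kb. mt-Nd3, mt-Nd4l and mt-Nd5 were at 62730, 54900 and 50611 per kb, and mt-Nd6 was lowest at 6220. The 12 heavy-strand coding genes leave out mt-Nd6 and include mt-Atp8, at 108277 per kb. These heavy-strand genes come from shared precursor RNAs, yet they spanned 16.7-fold per kb, from mt-Co3 to mt-Nd5. Short genes stood below the neighbour that they overlap: mt-Atp8 per kb was 22.7% of mt-Atp6 and mt-Nd4l 38.6% of mt-Nd4. Whether division by the annotated length understates such short genes was not tested. Some neighbours in the order do not differ beyond their spread. Within single muscles, mt-Nd4 exceeded mt-Atp8 in 5 of 6, mt-Atp8 exceeded mt-Nd2 in 4 of 6, mt-Nd3 exceeded mt-Nd4l in 4 of 6, and mt-Nd4l exceeded mt-Nd5 in 5 of 6. Each other neighbouring pair kept its order in 6 of 6 muscles, but the ranges over muscles were separate only for mt-Atp6 over mt-Nd1, mt-Nd1 over mt-Cytb and mt-Nd5 over mt-Nd6.

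**Figure D3:**
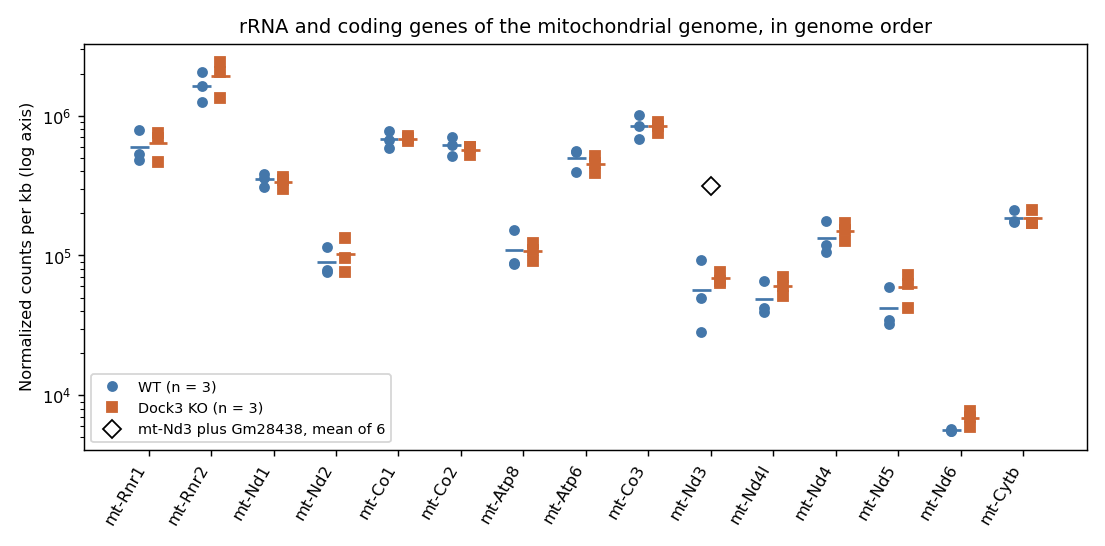
Level of the 13 coding and 2 rRNA genes in normalized counts per kilobase of transcript, on a log axis, with 1 point per muscle, a line for each group's arithmetic mean (3 WT and 3 Dock3 KO muscles) and an open diamond for the mean of mt-Nd3 summed with its nuclear copy Gm28438. mt-Rnr2 is highest at a mean of 1793937 per kb and mt-Nd6 lowest at 6220, and mt-Nd6 is the only gene shown whose groups do not overlap on the authors' scaling.

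mt-Nd6 is the only coding gene on the light strand (chrM:13552-14070, minus). Its RNA-like strand is rich in G (28.1%) and poor in C (5.97%), against 5.88% to 16.1% G and 22.1% to 30.0% C in the heavy-strand coding genes. It was at 2966, 2886 and 2864 (WT) and 3608, 3998 and 3048 (Dock3 KO). All Dock3 KO values lay above all WT values, and the WT values were closer to each other than the Dock3 KO values (2905 ± 53.3 against 3551 ± 477, SD, n = 3 each). mt-Nd6 and the tRNA gene mt-Ts1 are the 2 of 25 tested members whose groups did not overlap, both higher in Dock3 KO. Over all genes tested 16.2% did not overlap in either direction, and 7.6% did so with higher values in Dock3 KO. The log2 difference of mt-Nd6 was 0.28 (95% interval -0.01 to 0.57), with a limma p of 0.0578 and an adjusted p of 0.4998. The separation was seen on the authors' scaling, and the size of the difference depended on the scaling. Divided by the worth of 1 read, with no scaling between muscles, mt-Nd6 was at about 3347, 3489 and 3476 reads across WT muscles and 2573, 2622 and 3933 across Dock3 KO muscles, which overlapped. Those read numbers are not corrected for depth, so their overlap does not compare levels. With the same total in every column the log2 difference of mt-Nd6 was 0.0053 (limma adjusted p = 0.989).

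Against the other strand the direction depended on the partner. mt-Nd6 was 0.0815%, 0.0998% and 0.0754% of the summed 12 heavy-strand coding genes in WT and 0.104%, 0.123% and 0.0848% in Dock3 KO. These ranges overlapped, with a mean log2 difference of 0.27 (exact permutation p = 0.2). Against mt-Nd5 alone, the gene that meets it tail to tail, mt-Nd6 was 2.75%, 4.85% and 4.52% across WT muscles and 4.73%, 3.5% and 2.30% across Dock3 KO muscles, a mean log2 difference of -0.22 (exact permutation p = 0.6). Without Dock3 KO replicates 1 and 2, the muscles high in Gm42418 and Lars2, the first difference was -0.0021. With 1 muscle left out it was 0.146 without Dock3 KO replicate 2 and 0.412 without Dock3 KO replicate 3. The library kit keeps strand, but whether the authors' counting used it is not given in the sources used here. Reads of the 14 shared bases of the overlap mt-Nd5/mt-Nd6 shown above may therefore be counted in either gene. If strand was not used, antisense RNA over mt-Nd6 may be counted in mt-Nd6.

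mt-Rnr2 was the most abundant member in these libraries from rRNA-depleted RNA. mt-Rnr1 lay below mt-Co1 and mt-Co3 in mean level and per kb. mt-Rnr2, the large-subunit 16S rRNA (chrM:1094-2675, plus), was at 2590970, 1979497 and 3244951 for WT and 3815814, 3282729 and 2114085 for Dock3 KO. mt-Rnr1, the small-subunit 12S rRNA (chrM:70-1024, plus), was at 510381, 460233 and 752561 (WT) and 720916, 660540 and 448549 (Dock3 KO). In both, WT replicate 4 and Dock3 KO replicates 1 and 2 were high. The groups overlapped. The log2 differences were 0.22 (95% interval -0.749 to 1.196) and 0.09 (95% interval -0.61 to 0.79), with limma adjusted p = 0.922 and 0.960. Whether the depletion kit targets these mitochondrial rRNAs, and how evenly it worked across the 6 libraries, was not tested.

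The ratio of summed rRNA to summed coding counts was 0.852, 0.843 and 1.05 across WT muscles and 1.31, 1.21 and 0.713 across Dock3 KO muscles. The 2 Dock3 KO muscles high in Gm42418 and Lars2 had the 2 highest ratios and the third the lowest of all 6. Over the groups the log2 ratio differed by 0.19 (exact permutation p = 0.6), and without those 2 muscles by -0.35. With 1 muscle left out it was 0.028 without Dock3 KO replicate 1, 0.085 without Dock3 KO replicate 2, 0.466 without Dock3 KO replicate 3 and 0.297 without WT replicate 4. Whether the rRNA ratio and the level of the nuclear pair share a source was not tested. The ratio between the 2 rRNAs spanned a narrower range: mt-Rnr2 was 5.08, 4.30 and 4.31 times mt-Rnr1 in WT and 5.29, 4.97 and 4.71 times in Dock3 KO (exact permutation p = 0.3).

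The 22 tRNA genes, 59 to 75 bases long, were near the floor of the assay, with means over the 6 muscles from 0.791 (mt-Tt) to 72.0 (mt-Tl1) and 0.00113% to 0.00179% of the column in all. tRNAs are compact, folded and heavily modified, and are known to be poorly caught by libraries made for long RNA. The sequences of the tRNA gene with the highest mean, and of a light-strand tRNA gene that adjoins mt-Nd6, show how short a target each offers to a paired-end fragment (GENCODE M21 transcripts, GRCm38).
mt-Tl1, chrM:2676-2750: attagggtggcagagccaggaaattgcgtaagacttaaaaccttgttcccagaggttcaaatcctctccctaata
mt-Te, chrM:14071-14139, minus strand: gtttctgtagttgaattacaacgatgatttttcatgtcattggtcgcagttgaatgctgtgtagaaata
mt-Tl1, a leucine tRNA next to mt-Rnr2, was at 58.7, 81.9 and 109.7 for WT and 74.9, 58.3 and 48.5 for Dock3 KO. WT replicate 4 was the highest, the groups overlapped, and the log2 difference was -0.43 (95% interval -1.11 to 0.25, limma adjusted p = 0.702).

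The 9 other tested tRNA genes carry methionine, isoleucine, histidine, asparagine, tryptophan, glutamine, proline, serine and valine. mt-Tm was at 22.5, 36.6 and 90.9 (WT) and 25.9, 45.3 and 47.4 (Dock3 KO). For mt-Th the WT muscles gave 15.03, 13.9 and 54.7 and the Dock3 KO muscles 36.2, 42.8 and 26.9. In both, WT replicate 4 was highest and the groups overlapped. mt-Ti was at 41.8, 18.7 and 28.8 across WT muscles and 38.1, 38.7 and 33.1 across Dock3 KO muscles. For mt-Tq the WT muscles gave 20.5, 12.4 and 28.3 and the Dock3 KO muscles 24.0, 22.2 and 22.1. The Dock3 KO values of these genes lay inside the WT range. mt-Tn was at 12.2, 23.1 and 41.3 for WT and 48.1, 24.8 and 21.4 for Dock3 KO. For mt-Tw the WT muscles gave 16.6, 21.7 and 28.4 and the Dock3 KO muscles 41.7, 27.2 and 29.2. Dock3 KO replicate 1 was highest in both. mt-Tp was at 34.8, 16.5 and 4.2 (WT) and 38.9, 9.1 and 9.2 (Dock3 KO). For mt-Tv the WT muscles gave 6.2, 5.1 and 16.6 and the Dock3 KO muscles 8.2, 14.7 and 13.6. Replicate 1 of each genotype was highest in mt-Tp and WT replicate 4 in mt-Tv.

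mt-Ts1, a serine tRNA that shares its last 3 bases with the other strand of mt-Co1, was at 11.6, 10.2 and 2.2 across WT muscles and 20.4, 14.7 and 12.05 across Dock3 KO muscles. The groups did not overlap on this scale. Divided by the worth of 1 read in each column, its values were about 13.1, 12.3 and 2.69 reads in WT and 14.6, 9.62 and 15.5 in Dock3 KO, and there the groups overlapped. Those reads are not corrected for depth, so that overlap does not compare levels. mt-Ts1 had a log2 difference of 1.09 (95% interval -0.41 to 2.58, limma adjusted p = 0.640). mt-Ts1 and mt-Tv reached the minimum mean only through the Dock3 KO muscles, with WT means of 8.02 and 9.31 beside Dock3 KO means of 15.7 and 12.1. The 10 tested tRNA genes had adjusted p from 0.640 to 0.982 by limma.

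The other 12 tRNA genes, mt-Tf, mt-Ta, mt-Tc, mt-Ty, mt-Td, mt-Tk, mt-Tg, mt-Tr, mt-Ts2, mt-Tl2, mt-Te and mt-Tt, had values from 0 to 20.4 and were not tested in the main fit. Among them mt-Td was at 1.5, 0.9 and 3.3 for WT and 8.1, 5.3 and 5.2 for Dock3 KO. For mt-Te the WT muscles gave 3.1, 5.1 and 3.3 and the Dock3 KO muscles 12.3, 6.7 and 5.3. These 2 of 12 did not overlap between the groups, both higher in Dock3 KO, beside 2.71% of all genes with a mean above 0 and under 10. In approximate reads mt-Td was at 1.73, 1.08 and 4.0 (WT) and 5.77, 3.46 and 6.73 (Dock3 KO). For mt-Te the WT muscles gave 3.5, 6.17 and 4.04 and the Dock3 KO muscles 8.74, 4.37 and 6.8. Both overlapped in reads, which are not corrected for depth, so that overlap does not compare levels. At a few reads per muscle, what size of difference could be detected in these genes was not tested. With no filter on low values all 37 members were fitted, and none had an adjusted or unadjusted limma p under 0.05. Summed, the 8 light-strand tRNA genes came to 97.5, 79.5 and 91.0 across WT muscles and 167, 93.5 and 78.0 across Dock3 KO muscles, and the 14 heavy-strand ones to 189, 196 and 383 and to 287, 279 and 236.

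Reads of the mitochondrial genome can also be credited to nuclear copies of it. By sequence search, 11 nuclear genes in the annotation matched a mitochondrial coding transcript at 95% identity or more. Of these, 7 matched at 99% or more, 5 of them without a mismatch, and all 7 are unprocessed pseudogenes on the minus strand of chromosome 1 within 4663 bases (chr1:24611535-24616197, GRCm38). The deposited table lists values for each. The 7 copies together held 0.865% to 1.40% of the column and came to 7.12% to 9.77% of the 13 coding genes. With the copies added, the mitochondrial share was 27.9%, 23.6% and 30.8% for WT and 24.9%, 22.7% and 25.5% for Dock3 KO, a difference of -3.08 percentage points (exact permutation p = 0.3).

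The 2 copies with the highest means each differ from their mitochondrial partner at a single base of the aligned stretch. Those bases are shown in capitals. Within the aligned stretch of the reference sequences, they alone could tell a read of the copy from a read of the organelle. Whether these mice carry the reference bases was not tested. Positions are counted from 1 at the 5′ end of the mitochondrial gene, with the mitochondrial base first: T3C for mt-Nd3 and Gm28438, and A1066T for mt-Co1 and Gm29216. The window of Gm29216 opens upstream of its alignment, which begins at base 10 of the copy.
mt-Nd3, chrM:9459-9481, plus strand: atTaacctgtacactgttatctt
Gm28438, chr1:24613097-24613119, minus strand: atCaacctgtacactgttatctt
mt-Co1, chrM:6373-6413, plus strand: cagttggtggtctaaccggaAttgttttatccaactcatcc
Gm29216, chr1:24616165-24616197, minus strand: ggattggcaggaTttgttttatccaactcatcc
Each of these bases lies near the 5′ end of the copy, so a read from the remainder of the match has no base that separates the pair.

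mt-Nd3, a complex I subunit at the junction of its arms, was the coding gene most affected. mt-Nd3 was listed at 32384, 9827 and 17187 (WT) and 26489, 22970 and 22123 (Dock3 KO). Its copy Gm28438 was listed higher than mt-Nd3 in all 6 muscles, at 74392, 73723 and 122511 across WT muscles and 92602, 73275 and 84763 across Dock3 KO muscles. Gm28438 was 69.7%, 88.2% and 87.7% of the pair in WT and 77.8%, 76.1% and 79.3% in Dock3 KO, so the split varied most among WT muscles. The log2 difference of mt-Nd3 as listed was 0.43 (SE 0.343, limma adjusted p = 0.744). Summed with Gm28438 it was at 106775, 83550 and 139698 for WT and 119091, 96246 and 106886 for Dock3 KO, a log2 difference of -0.01 (SE 0.219, limma adjusted p = 0.997). Per kb the mean of mt-Nd3 went from 62730 to 312378 with its copy, 4.98-fold higher, which would place it between mt-Nd1 and mt-Cytb. The level and the difference of mt-Nd3 as listed are therefore uncertain.

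Gm29216 matches the last 483 bases of mt-Co1 at 99.8% identity. It was listed at 179919, 121621 and 203979 (WT) and 179869, 162393 and 152119 (Dock3 KO), 11.8% to 14.7% of the pair. This split varied little across muscles, and mt-Co1 summed with it differed by 0.01 on the log2 scale. Gm28437, the copy of mt-Co3, was at 4724, 13071 and 18297 across WT muscles and 32498, 26477 and 13368 across Dock3 KO muscles. Gm28661, the copy of mt-Co2, was at 170, 11143 and 26415 for WT and 12768, 23258 and 7396 for Dock3 KO. Neither copy has a base that differs from its partner over the aligned stretch, and their share of the pair ranged from 0.706% to 4.36% and from 0.0401% to 6.09%. These values rest on how reads were divided, which the sources used here do not give. A more diverged copy of mt-Co1 on chromosome 2, Gm13340, at 97.6% identity, had a mean of 698. Summed with their copies, the log2 differences of mt-Co2, mt-Co3, mt-Atp6, mt-Nd4 and mt-Nd4l were -0.08, 0.03, -0.14, 0.18 and 0.33.

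**Figure D4:**
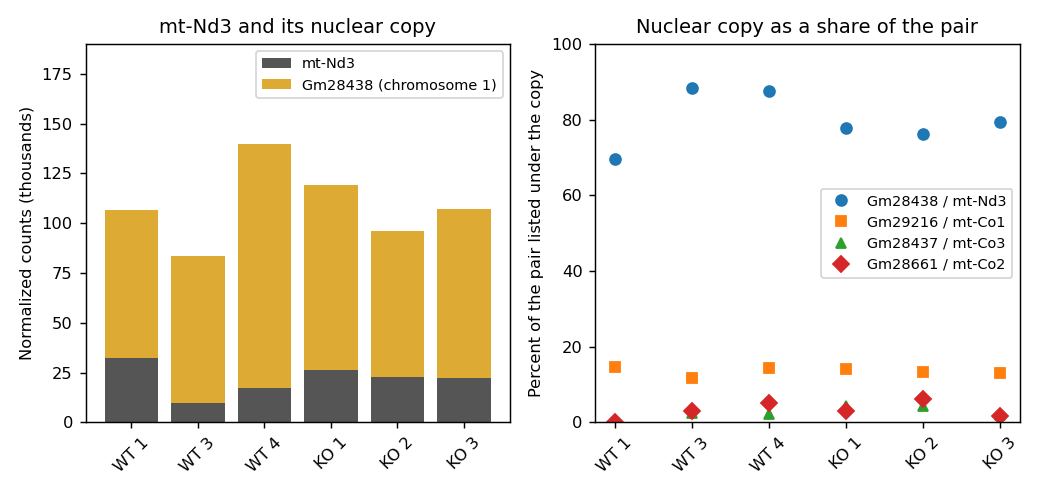
Left, normalized counts of mt-Nd3 with its nuclear copy Gm28438 stacked on it, in each of the 6 muscles. Right, percent of the sum of gene and copy that was listed under the copy, for 4 copies on chromosome 1. Gm28438 takes 69.7% to 88.2% of its pair with mt-Nd3 and Gm29216 11.8% to 14.7% of its pair with mt-Co1.

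The nuclear genes that serve the mitochondrial genome were taken as 8 lists of 287 genes, of which 283 were tested. A single one passed the limma adjusted p of 0.05, which is 0.353% beside 1.03% of all genes, and 15 (5.30%) had an unadjusted p under 0.05 beside 10.5%. No gene passed among 20 for mitochondrial transcription and DNA maintenance (median log2 difference -0.08, 5 above and 15 below 0), among 34 for RNA processing (-0.01), or among 34 synthetases and translation factors (0.03). The same held for 20 genes of mitochondrial content and import (median 0.10, 16 above 0), 16 biogenesis regulators (-0.03) and 78 mitochondrial ribosomal proteins (-0.01). Of 77 tested nuclear subunits of complexes I, III, IV and V, 1 was called higher, 60 were above 0 and the median was 0.08. All 4 subunits of complex II, which has no mitochondrially encoded part, were above 0 with a median of 0.16 and none passed. The median over all genes was -0.01, and no list was tested as a set. These counts and medians are on the authors' scaling. Over the 283 genes the median was 0.03 on that scaling. It was -0.07 with the same total outside Gm42418 and Lars2, where that of all genes was -0.11. With the same total in every column it was -0.24, where that of all genes was -0.28.

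Tfam, which packages mitochondrial DNA and starts its transcription, was at 525, 534 and 674 (WT) and 713, 596 and 434 (Dock3 KO), with a log2 difference of -0.01 (95% interval -0.45 to 0.43). Polrmt, the RNA polymerase of the organelle, was at 383, 457 and 429 across WT muscles and 255, 400 and 399 across Dock3 KO muscles, with a difference of -0.29 (95% interval -0.74 to 0.15). The groups overlapped in both, with limma adjusted p = 0.996 and 0.688. Lrpprc, which stabilizes mitochondrial mRNAs, was at 1802, 1731 and 1491 for WT and 1436, 2075 and 1704 for Dock3 KO, with a difference of 0.04 (95% interval -0.31 to 0.39, limma adjusted p = 0.964). Ppargc1a, a coactivator of mitochondrial biogenesis, was at 895, 882 and 950 (WT) and 830, 1117 and 1863 (Dock3 KO), where replicate 3 stood highest. Its difference was 0.40 (95% interval -0.15 to 0.95, limma adjusted p = 0.641). Lars2 had a difference of 1.95 (95% interval 0.38 to 3.52, limma adjusted p = 0.339), with Dock3 KO replicates 1 and 2 high. Lars2 alone was at 189164 to 250814 in WT and 195401 to 1887554 in Dock3 KO. The 34 synthetases and translation factors that include it summed to 203675 to 264771 and 209077 to 1901869. Whether all counts listed under Lars2 come from its mRNA was not tested. Without Dock3 KO replicate 3 the Lars2 difference was 2.98 with a limma adjusted p of 0.00244. That fit leaves out the only Dock3 KO muscle within the WT range and keeps only the high ones, so its p cannot stand for the genotype.

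Ndufa12, an accessory subunit of complex I and the 1 list gene that passed, was at 1055, 1471 and 1539 across WT muscles and 3823, 2838 and 2902 across Dock3 KO muscles, without overlap. Ndufa12 was higher by 1.24 on the log2 scale (SE 0.178, limma adjusted p = 0.00822). It has a processed pseudogene, Gm15920 on chromosome 5, that matches it at 99.5% over 221 bases and that was listed at 2042, 1925 and 2360 for WT and 36.7, 32.9 and 59.1 for Dock3 KO. The sum of both genes was 3097, 3395 and 3899 (WT) and 3860, 2871 and 2961 (Dock3 KO), which overlapped (3464 ± 405 against 3230 ± 547, SD, n = 3 each). The call of Ndufa12 was lost with a prior variance without trend, with Gm42418 as a covariate and without Dock3 KO replicates 1 and 2.

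**Figure D5:**
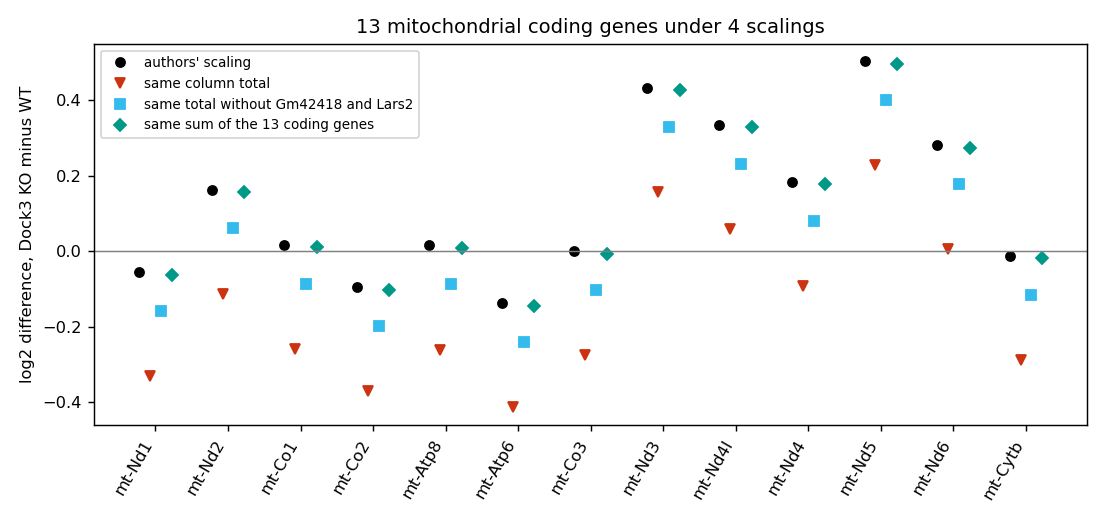
Log2 differences (Dock3 KO minus WT) of the 13 mitochondrial coding genes under 4 scalings of the columns, with 1 point per gene and scaling. The median of the coding genes moves from 0.02 with the authors' scaling to -0.26 with the same total in every column, and 4 of the 13 points stay above 0 under the latter.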

How the data were processed

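The deposited table holds 6 columns, 1 per muscle, of non-integer values that the authors named normalized counts. They were treated as a signal scaled by the authors, since whole multiples of 1 read made up 17.7% to 31.4% of values (tolerance 0.01) and whole reads could not be recovered. By the worth of 1 read, the columns stand for about 21700000 to 32400000 reads. FastQC, Trim Galore 0.4.5, Salmon 0.12.0, DESeq2 1.22.1 and R 3.5.3 and the builds mm10 and GRCm38 are named, per the submitters' processing notes, without their roles. All 54393 gene identifiers matched GENCODE M21. No value column was left unused (0).

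Genes whose mean level was 10 or more were tested with limma 3.58.1 in R 4.3.3 on log2(normalized count + 1), with a variance prior trended on mean expression and Benjamini-Hochberg adjustment over 16031 genes. Fold changes on that scale understate changes of low genes. Shares and ratios were tested by exact two-sided permutation over samples (scipy 1.17.1). The p-values measure the spread between these 3 muscles per genotype, since nothing in the labels says how the muscles fall to animals. Transcripts were searched against each other with blastn 2.17.0, keeping matches of at least 95% identity, 100 aligned bases and 50% of the shorter transcript. The fit was also run on simulated data, with independent genes, known changes and no shift of whole samples. That run does not bear on how the results depend on the scaling.

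All 37 members are accounted for, with values in every sample for coding, rRNA and tested tRNA genes. From the nuclear lists, the genes past the threshold and Tfam, Polrmt, Ppargc1a and Lrpprc are named, and of the nuclear copies the 5 with the highest means. Lars2, Gm42418 and Dock3 are named as checks, and mt-Td and mt-Te after their values were seen. Members and lists were chosen with earlier results of these data known. Alternatives were pseudocounts, filters, scalings, the prior, a replicate block, each muscle left out, and, chosen after seeing the data, Gm42418 as a covariate, both Dock3 KO muscles high in Gm42418 left out, and genes summed with their copies.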

Additional observations from a re-analysis of the deposited data

How the results depend on the processing

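No mitochondrial gene passed the threshold under any of the 19 other settings, with a lowest adjusted p of 0.224 (mt-Nd3 as listed, without WT replicate 1). WT replicate 1 had the lowest part of the mt-Nd3 pair listed under Gm28438, 69.7%. Summed with Gm28438 over all 6 muscles, the mt-Nd3 difference was -0.01. At an unadjusted p under 0.05 there were mt-Nd3, mt-Nd4l and mt-Nd5 without WT replicate 1, mt-Nd5 without Dock3 KO replicate 1, mt-Nd6 without Dock3 KO replicate 3, mt-Th without WT replicate 4 and mt-Tl1 with the same total in every column. The sign differed from that reported in 75 of 473 values over genes and settings, sums with nuclear copies included. Filters and the prior leave the log2 difference of a gene unchanged, so their values in that count could not differ in sign. Of 25 genes, 9 never changed sign, mt-Nd4l, mt-Nd5 and mt-Nd6 among them. The lowest values of these 3 were 0.0592, 0.227 and 0.0053, each with the same total in every column. The 165 genes called over the whole table became 104 with a prior without trend, 49 without Dock3 KO replicates 1 and 2, and 57 with Gm42418 as a covariate, and 98 to 159 with 1 muscle left out (98 without WT replicate 4, 100 without Dock3 KO replicate 2). With the same total in every column the split was 41 higher and 136 lower. The 1 nuclear list gene became 0 with a prior without trend, 0 without Dock3 KO replicates 1 and 2, 0 with Gm42418 as a covariate, and 1 to 2 with 1 muscle left out. The share difference of -2.91 turned to 0.0872 without Gm42418 and Lars2 in the total and ran from -4.73 to -1.36 with 1 muscle left out. The mt-Nd6 ratio of 0.27 turned to -0.22 against mt-Nd5 alone and to -0.0021 without Dock3 KO replicates 1 and 2, and the rRNA ratio of 0.19 to -0.35 without them. The cause was not tested. In the fit with a replicate block 127 genes and 0 mitochondrial genes were called, with all 13 coding genes above 0. WT replicate 4 and Dock3 KO replicate 2 have numbers that no muscle of the other genotype has. The genotype difference of that fit therefore rests on the muscles numbered 1 and 3 alone. Muscles that share numbers 1 or 3 had deviations that correlated at 0.0649 and 0.00663. These values cannot show whether the numbers pair muscles, which the labels do not say. The planned tests on whole reads were not run because whole reads could not be recovered.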

Other observations

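The level of mt-Nd5 relative to mt-Co3, a gene farther upstream on the same strand, varied within both genotypes. mt-Nd5 was 16.2%, 11.04% and 8.04% of mt-Co3 (WT replicates 1, 3 and 4) and 10.7%, 19.2% and 19.9% (Dock3 KO replicates 1, 2 and 3), with an overlap of the groups (exact permutation p = 0.3). WT replicate 1 and Dock3 KO replicates 2 and 3 were high, which are the muscles that were also high in mt-Nd2 and mt-Nd4. The same 3 muscles were high in the ratio of Ttn, the giant sarcomere protein, to Acta1, skeletal actin. That ratio was 2.06, 1.33 and 1.17 in WT and 1.10, 2.65 and 1.94 in Dock3 KO. The Ttn ratio was chosen after its values were seen, and what the ratios share was not tested.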
